A study of Homo sapiens with 8 samples.

Results

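The mitosis and spindle checkpoint genes described here are 54 named genes of the G2 and M phases, chosen by name from a table of 23368 gene symbols, and kinesin genes other than CENPE were left aside. RNA was sequenced from HEK293F cells, a line of human embryonic kidney cells that carries adenovirus early genes, whose products are known to bind RB family proteins and p53. The overexpression group (3 libraries) received a single transfection with a plasmid for myc-tagged MOV10, an RNA helicase. The knockdown group (2 libraries, numbered 2 and 3) received MOV10 siRNA 3 times at intervals of 24 h. The control group (3 libraries) received an irrelevant siRNA on that schedule. All groups share the same line and serum medium, and no empty-plasmid library was used here, so the rise of MOV10, the delivery of a plasmid and the absence of siRNA cannot be told apart in the overexpression group. Whether replicate libraries stem from separate cultures is not stated, so a p-value refers to the variation among libraries alone, which could be technical.

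Mitosis is driven by cyclin-dependent kinase 1 (CDK1) bound to B-type cyclins. WEE1 and PKMYT1 hold the kinase inactive by phosphorylation until CDC25 phosphatases remove the phosphates. Kinetochores then bind spindle microtubules, and the spindle checkpoint blocks CDC20, the activator of the anaphase-promoting complex, until every chromosome is attached. The freed complex marks securin and cyclin B for destruction, which releases separase to part the sister chromatids and lets the cell leave mitosis. Most of these genes are transcribed late in the cell cycle from promoters with a cell cycle genes homology region (CHR), which the MuvB core binds together with either the repressive DREAM proteins or MYBL2 and FOXM1, and with CCAAT boxes, which NF-Y binds.

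Reads per library summed to 23.4 M, 21.7 M and 12.7 M with overexpression, to 32.8 M and 19.4 M with knockdown with 22.7 M, 19.4 M and 14.97 M for control cells. Levels are given in CPM, read counts brought to a common library size with TMM factors. MOV10 stood at 2971, 2916 and 2454 CPM in the overexpression libraries, at 50.6 and 55.5 CPM in the knockdown libraries and at 76.8, 76.4 and 91.2 CPM in the control libraries, so every library lay on the side its label gives, with log2 fold changes of 5.10 ± 0.08 and -0.62 ± 0.08 (SE). All 7 HEK293 markers examined were detected in every library, while the erythroid and hepatocyte markers stayed under 1 CPM each. A list of 6 fibroblast markers summed to 62.4 to 69.9 CPM with overexpression, to 45.6 to 48.3 CPM with knockdown and to 62.2 to 67.9 CPM in control, with 3 of the 6 under 1 CPM in every library, and its part in the results was not tested. Overexpression library 3, the shallowest, stood apart from its group. It was the highest of the 3 overexpression libraries for 33 of the 54 genes and the lowest for 13, against 37.1% and 44.0% of all tested genes. The median coefficient of variation of the 54 genes within a group was 7.21% with overexpression, 2.45% with knockdown and 2.61% in control, against 7.09%, 4.03% and 4.64% over all tested genes. Counts without it are given beside those that it moved most.

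Promoter sequences are shown for 6 of the genes called with overexpression, so that those which were lower (CDC20, PLK1, ESPL1 and INCENP) can be read beside those which were higher (HMMR and CKS2). They are RefSeq promoter windows of GRCh38.p14, a later build than the hg19 of the counts, from 150 bases before to 20 bases after the gene start, all on the plus strand. The windows lie at chr1:43358831-43359000 for CDC20, chr16:23678739-23678908 for PLK1, chr12:53268149-53268318 for ESPL1, chr11:62123861-62124030 for INCENP, chr5:163460482-163460651 for HMMR and chr9:89311045-89311214 for CKS2. Capitals mark matches to the CHR sequence TTTGAA and to the CCAAT box on either strand, so that TTCAAA and ATTGG are the same motifs on the other strand.
CDC20: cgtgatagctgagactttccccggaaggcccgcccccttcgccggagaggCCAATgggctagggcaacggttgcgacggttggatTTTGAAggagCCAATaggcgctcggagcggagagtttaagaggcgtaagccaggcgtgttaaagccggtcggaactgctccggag
PLK1: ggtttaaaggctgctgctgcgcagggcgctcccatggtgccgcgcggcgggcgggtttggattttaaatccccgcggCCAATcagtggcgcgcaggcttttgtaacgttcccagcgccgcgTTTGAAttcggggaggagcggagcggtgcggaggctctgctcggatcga
ESPL1: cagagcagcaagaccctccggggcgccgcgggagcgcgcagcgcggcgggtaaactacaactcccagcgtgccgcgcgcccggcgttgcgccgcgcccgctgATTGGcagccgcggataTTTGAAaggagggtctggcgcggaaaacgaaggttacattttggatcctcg
INCENP: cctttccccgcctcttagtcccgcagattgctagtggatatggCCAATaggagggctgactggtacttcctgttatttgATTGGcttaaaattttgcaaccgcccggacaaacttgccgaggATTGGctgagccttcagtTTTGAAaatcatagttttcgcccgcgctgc
HMMR: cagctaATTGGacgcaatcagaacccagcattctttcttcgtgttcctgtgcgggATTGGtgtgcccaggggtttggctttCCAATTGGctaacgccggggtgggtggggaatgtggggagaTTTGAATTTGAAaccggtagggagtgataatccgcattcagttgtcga
CKS2: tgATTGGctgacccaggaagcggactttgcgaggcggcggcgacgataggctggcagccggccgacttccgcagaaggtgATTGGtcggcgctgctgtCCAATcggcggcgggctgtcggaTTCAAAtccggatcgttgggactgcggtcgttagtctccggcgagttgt
Each of the 6 windows holds both motifs, and in HMMR the CHR sequence occurs in tandem. The 6 genes were picked by hand, not by a rule, so they do not stand for the other genes. In the wider windows described next, both motifs occurred together for 24 of the 43 matched genes.

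RefSeq windows from 250 bases before to 50 bases after the start were matched for 43 of the 54 genes, 56 windows in all. On either strand, TTTGAA occurred in 32 of these 56 windows (57.1%), against 15.2% of all 35116 windows in the table, and CCAAT in 40 (71.4%), against 34.6%. Both occurred together in 26 windows (46.4%), against 5.90% of all windows. The CHR variants TTTAAA and TTCGAA were found in 14 windows (25%), against 12.2%, and in 4 windows (7.14%), against 1.45%. In the member windows 2 matches of different motifs overlapped. Among matches to TTTGAA in the members, 20 of 44 (45.5%) lay in the 50 bases before the start, against 14.7% of the matches in all windows. Of the matches to CCAAT, 55 of 93 (59.1%) lay between 120 and 40 bases before it, against 41.3%. Where windows of a gene overlapped, as for PTTG1, AURKB, CDC25C and ECT2, a site was counted in each window, so these matches are not all separate sites. The CHR sequence was not limited to one direction of response to overexpression. It occurred in 8 of the 11 matched genes that were higher, in 8 of the 15 that were lower and in 13 of the 17 that did not pass the test. With knockdown the counts were 8 of 10, 3 of 7 and 18 of 26. These matches describe letters in a window, and binding was not measured.

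**Figure D1:**
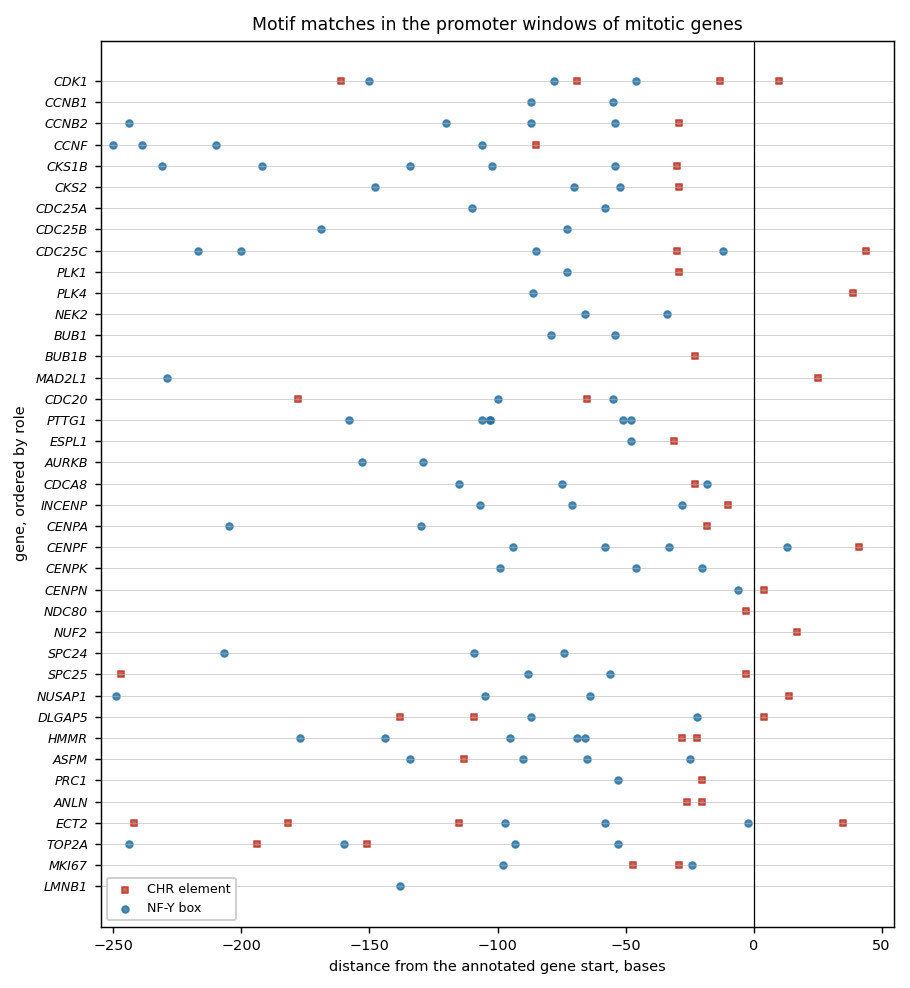
Positions of CHR (TTTGAA) and NF-Y (CCAAT) motif matches in the promoter windows of the matched genes that hold a match, as distance in bases from the annotated gene start on the horizontal axis, 1 row per gene, all windows of a gene in its row. CHR matches crowd just before the start, with 20 of 44 in the last 50 bases, and NF-Y matches lie mostly further upstream. A site that lies in overlapping windows of a gene is drawn for each window.

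The 54 genes were all measured, and all passed the filter on low counts, with mean levels over the 8 libraries from 23.5 CPM for SPC24 to 1022 CPM for TOP2A. Per kilobase of annotated exon, which allows levels of different genes to be compared, TOP2A led in control cells at 143 ± 3.76 CPM per kilobase (SD, n = 3), followed by MYBL2 at 134 ± 0.983. CKS2 at 101 ± 3.70 CPM per kilobase and CCNB1 at 96.8 ± 1.95 overlapped in their libraries. UBE2C at 92.4 ± 2.36 CPM per kilobase lay below CCNB1 in every control library. At the low end CENPK, CKS1B and SPC24 lay at 10.4, 10.3 and 9.72 CPM per kilobase, within their spread of each other. Exon lengths came from another annotation than the counts, so these levels are approximate. CKS1B and PTTG1 have near-identical intronless copies in the genome, and their counts are uncertain where reads were split among copies.

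**Figure D2:**
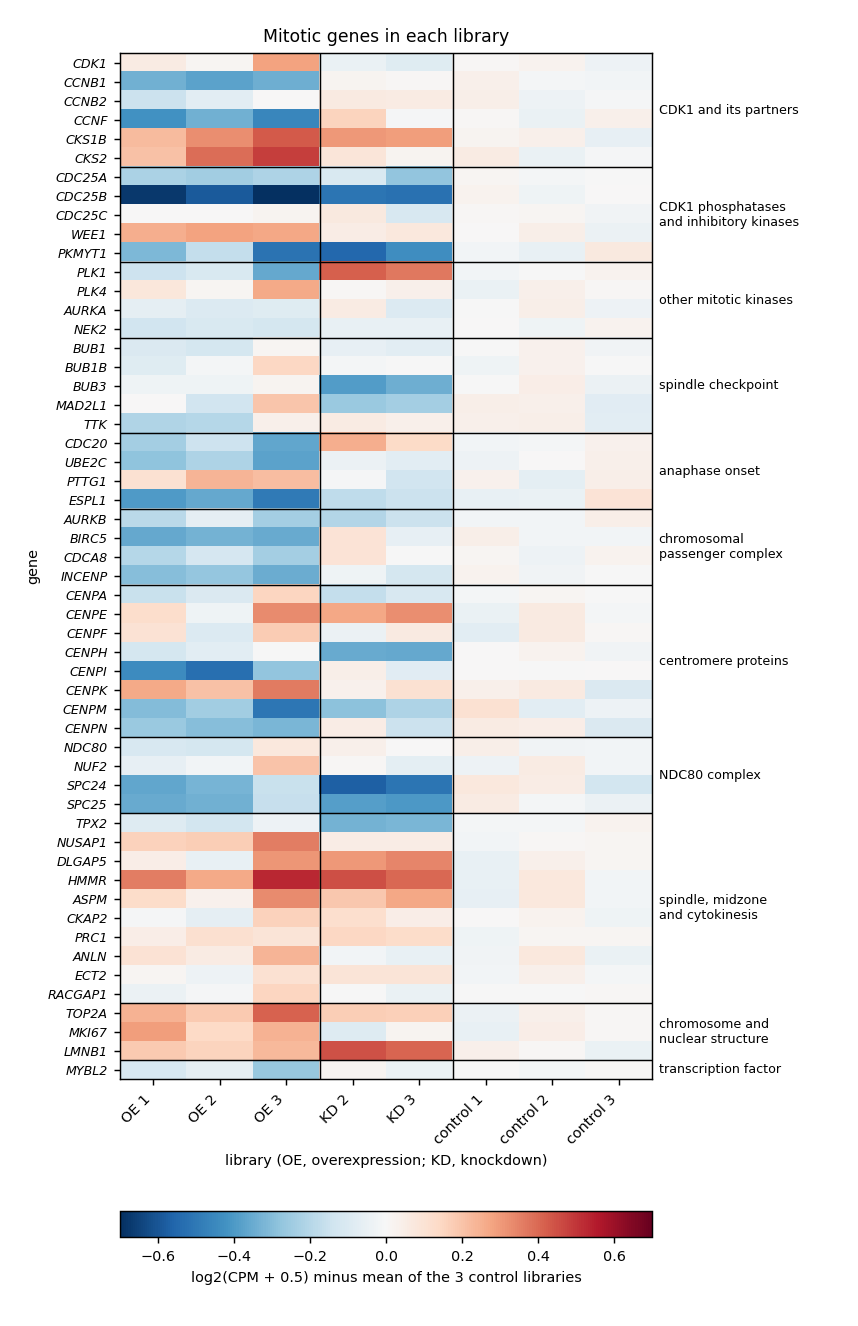
Log2 CPM of each of the 54 genes (rows, ordered by role) in each of the 8 libraries (columns), as the difference from the mean of the 3 control libraries, with the colour scale in log2 units. The passenger complex is lower in all 3 overexpression libraries, and library 3 is the highest of its group for 33 genes.

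With overexpression the mitotic genes moved in both directions and by small amounts. The phosphatase gene CDC25B, the centromere gene CENPI, the separase gene ESPL1 and the cyclin F gene CCNF fell most, by 0.69, 0.43, 0.41 and 0.40 on the log2 scale, while HMMR and CKS2 rose most, with log2 fold changes of 0.38 and 0.36. By the quasi-likelihood test of edgeR, with Benjamini-Hochberg adjustment over 15254 genes (adjusted p under 0.05), 31 of the 54 genes (57.4%) were called against control, where 49.2% of all tested genes were called. Of these, 12 were higher (22.2%, against 25.2% of all genes) and 19 lower (35.2%, against 24.1%). Among the 8673 genes at least as abundant as the lowest of the 54, 20.9% were higher and 34.1% lower, close to the shares of the mitotic genes. The median log2 fold change was -0.05, against 0.01 over all genes, and the range ran from -0.69 to 0.38, so none reached 2-fold. In 11 genes all 3 overexpression libraries lay above every control library and in 22 below, against 28.5% and 27.5% of all genes. Without overexpression library 3, 10 were higher and 21 lower, and BUB1, TTK and TPX2 joined the lower genes while MYBL2 left them. Without overexpression library 2, 17 were higher and 19 lower, and CDK1, PLK4, CENPE, CENPF and DLGAP5 joined the higher genes. With library totals as the scale and no TMM factors, 16 were higher and 17 lower, and 48.5% of the called genes were higher in place of 38.7%. In bulk RNA, fewer cells in mitosis and less transcript per mitotic cell cannot be told apart.

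With knockdown, changes were again split between directions. SPC24, CDC25B, PKMYT1 and SPC25 fell most, by 0.57, 0.52, 0.50 and 0.40 on the log2 scale, and HMMR, LMNB1 and PLK1 rose most, with log2 fold changes of 0.43, 0.43 and 0.40. By the same test 22 of the 54 genes (40.7%) were called against control, where 39% of all tested genes were called. Higher were 10 (18.5%, against 19.9% of all genes) and lower 12 (22.2%, against 19.1%). Among the 8673 genes of comparable abundance 26.2% were higher and 16.9% lower. The median log2 fold change was -0.01, against -0.00 over all genes, with a range from -0.57 to 0.43. Both knockdown libraries lay above every control library in 15 genes and below in 19, against 32.5% and 31.1% of all genes. Without knockdown library 2 fewer of the 54 genes were called, and fewer of all tested genes as well. The median log2 fold change of the 54 genes was then -0.05, against -0.00 over all genes. Without knockdown library 3 it was 0.02, against 0.00.

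In overexpression set directly against knockdown, PLK1, CCNF, CDC20 and CENPI fell most, by 0.59, 0.48, 0.44 and 0.41 on the log2 scale, and BUB3 and CKS2 rose most, with log2 fold changes of 0.35 and 0.30. Of the 54 genes 30 were called (55.6%), where 57.4% of all tested genes were called. With overexpression 13 were higher (24.1%, against 29.3% of all genes) and 17 lower (31.5%, against 28.1%). Among the 8673 genes of comparable abundance 20.4% were higher and 40.7% lower. The median log2 fold change was -0.04, against 0.02 over all genes. All overexpression libraries lay above both knockdown libraries in 15 genes and below them in 18, against 35.4% and 33.7% of all genes. Under library totals the split was 18 higher and 12 lower, so that 60% of the called genes were higher in place of 43.3%. Library totals moved the fold changes of UBE2C, ESPL1, CDCA8, INCENP, CENPN and LMNB1 in this comparison to between -0.17 and -0.14 and that of ANLN to 0.25, all of them still called. Without overexpression library 3, 13 were higher and 20 lower (all genes 4607 and 4541). Fewer of the 54 genes, and of all tested genes, were called without knockdown library 2, which is the deepest library. The comparisons with control share their control libraries, so they are not independent of each other, and the values of each are given side by side in what follows. Fold changes below are log2 values from edgeR ± SE. The SE was derived as the absolute log2 fold change over the square root of the F statistic. Each adjusted p is from the quasi-likelihood test of edgeR over all tested genes. Counts by role below rest on at most 10 genes each and are to be read beside the shares of all genes given above.

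**Figure D3:**
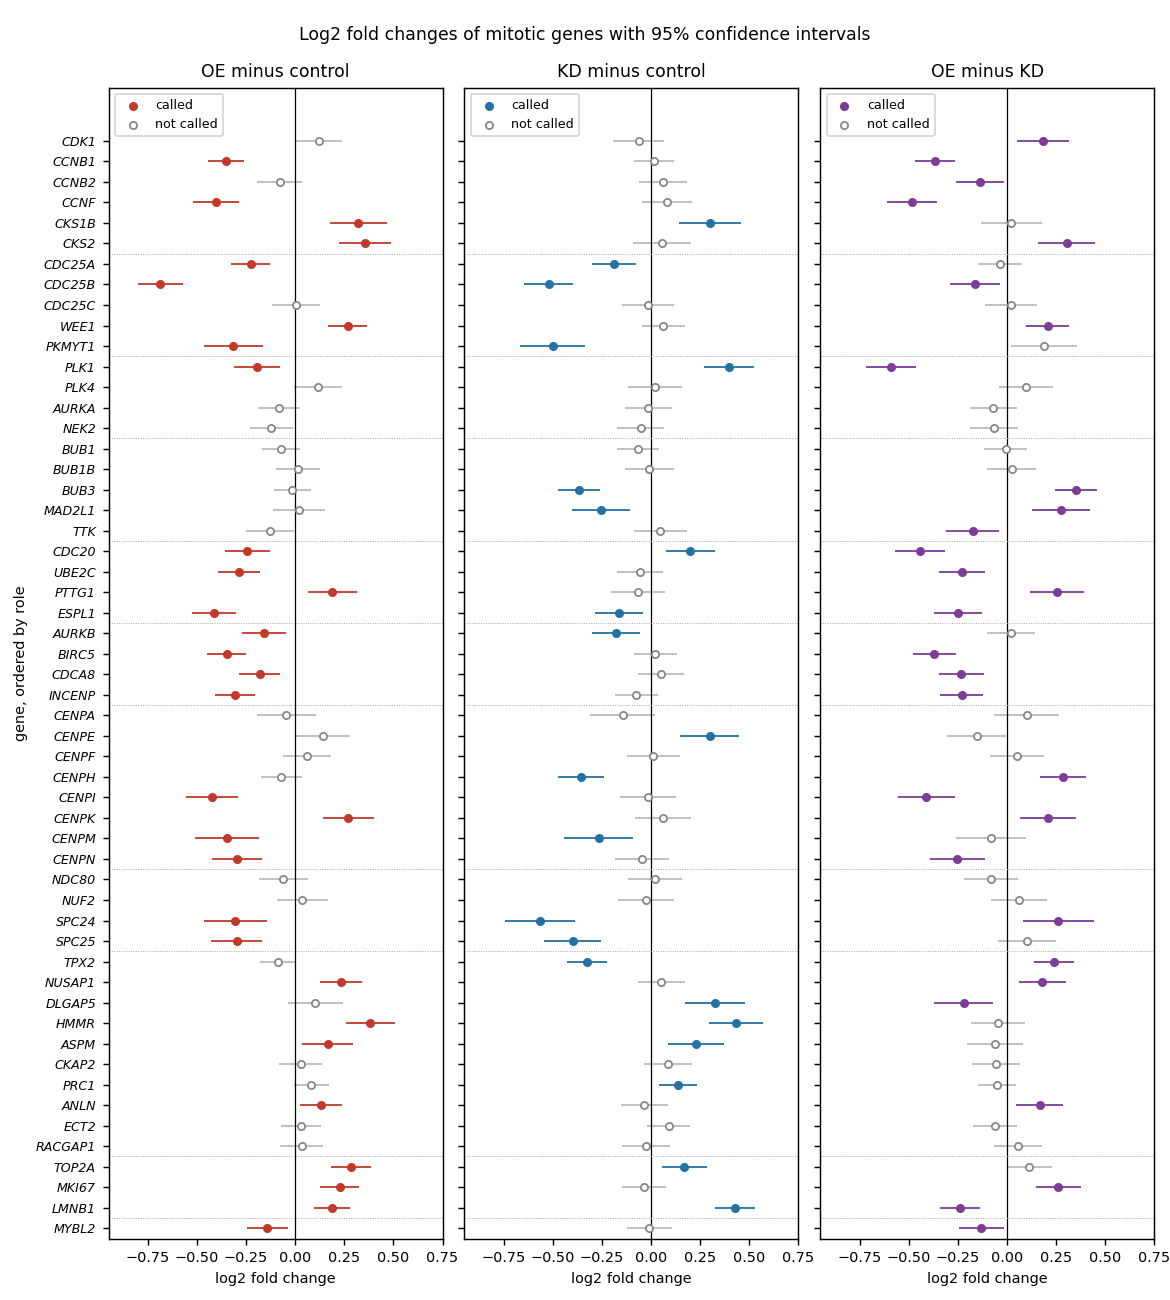
Log2 fold changes of the 54 genes (rows, ordered by role) with 95% confidence intervals, for overexpression against control, knockdown against control and overexpression against knockdown. Intervals were built from the SE derived from the F statistic of edgeR, and called genes are coloured. No gene reaches a log2 fold change of 1 in either direction, and CDC25B lies farthest to the left with overexpression at -0.69.

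Of the 6 genes that encode CDK1, cyclins and small CDK-binding proteins, 2 were higher and 2 lower with overexpression, and 1 was higher with knockdown. CCNB1, the main mitotic cyclin, stood at 196, 191 and 195 CPM in the overexpression libraries, at 251 and 249 CPM in the knockdown libraries and at 253, 245 and 244 CPM in the control libraries. All overexpression libraries lay below every other library, while the knockdown libraries lay within the range of the controls. Its fold change was -0.35 ± 0.04 (adjusted p = 1.78e-06) with overexpression, 0.01 ± 0.05 (adjusted p = 0.845) with knockdown and -0.37 ± 0.05 (adjusted p = 2.28e-06) for overexpression against knockdown. CCNF encodes cyclin F, which directs a ubiquitin ligase to its targets and does not activate a CDK. CCNF stood at 68.98, 73.3 and 67.3 CPM in the overexpression libraries, at 103 and 92.2 CPM in the knockdown libraries and at 93.2, 89.7 and 95.04 CPM in the control libraries. The overexpression libraries were again below all others, with a fold change of -0.40 ± 0.06 (adjusted p = 6.7e-06), and the knockdown libraries overlapped the controls, with 0.08 ± 0.06 (adjusted p = 0.307). Against knockdown the fold change of CCNF was -0.48 ± 0.06 (adjusted p = 1.31e-06).

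The small CDK-binding proteins CKS1B and CKS2 were the higher pair with overexpression. CKS2 stood at 71.7, 81.6 and 87.1 CPM in the overexpression libraries, at 65.98 and 63.00 CPM in the knockdown libraries and at 64.6, 60.2 and 61.8 CPM in the control libraries. Overexpression libraries were the highest without overlap, with a fold change of 0.36 ± 0.06 (adjusted p = 0.000105), and knockdown libraries overlapped the controls, with 0.05 ± 0.07 (adjusted p = 0.581). CKS1B, which also helps an SCF ubiquitin ligase recognise the CDK inhibitor p27, stood at 28.1, 30.3 and 32.5 CPM in the overexpression libraries, at 29.8 and 29.6 CPM in the knockdown libraries and at 24.4, 24.7 and 23.1 CPM in the control libraries. Here overexpression and knockdown libraries overlapped each other and both lay above every control, with fold changes of 0.32 ± 0.07 (adjusted p = 0.000775) and 0.30 ± 0.08 (adjusted p = 0.00366). CKS1B was the gene of the 6 called with knockdown. CDK1 itself averaged 243 ± 24.9 CPM with overexpression, 214 ± 4.11 CPM with knockdown and 224 ± 4.90 CPM in control (SD, n = 3, 2 and 3), with no call against control. CDK1 was higher with overexpression than with knockdown, at 0.18 ± 0.06 (adjusted p = 0.0184), a call lost when overexpression library 3, knockdown library 2 or knockdown library 3 was left out (adjusted p from 0.0506 to 0.127). CCNB2 was lower in that comparison at -0.14 ± 0.06 (adjusted p = 0.0499). This call was lost in each fit that left out a library except overexpression library 3, with adjusted p up to 0.237, and under library totals it fell to -0.05 (adjusted p = 0.454). It held in 3 of 17 alternatives.

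Among the phosphatases and kinases that set the phosphorylation of CDK1, 3 of 5 genes were lower and 1 higher with overexpression, and 3 of 5 were lower with knockdown. CDC25B, a phosphatase that activates CDK1 at the centrosome, stood at 77.5, 82.5 and 70.7 CPM in the overexpression libraries, at 86.8 and 86.2 CPM in the knockdown libraries and at 126, 122 and 124 CPM in the control libraries. The groups did not overlap, with overexpression lowest, knockdown next and control highest. CDC25B had a fold change of -0.69 ± 0.06 (adjusted p = 7.01e-09) with overexpression and -0.52 ± 0.06 (adjusted p = 1.32e-06) with knockdown. Between the treatments it was -0.16 ± 0.06 (adjusted p = 0.0272), a call lost when overexpression library 1, overexpression library 3, knockdown library 2 or knockdown library 3 was left out (adjusted p from 0.0559 to 0.135) and under library totals, with -0.08 (adjusted p = 0.288). CDC25A, which also acts at the start of DNA replication, was lower at -0.23 ± 0.05 (adjusted p = 0.000601) with overexpression and at -0.19 ± 0.05 (adjusted p = 0.00832) with knockdown, a call lost without knockdown library 3 (adjusted p = 0.235). CDC25C, the third of these phosphatases, averaged 50.9 ± 0.318 CPM with overexpression, 49.98 ± 4.52 CPM with knockdown and 50.7 ± 0.712 CPM in control, and the groups overlapped.

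The opposing kinases were called in opposite directions with overexpression. PKMYT1, a membrane-bound kinase that inhibits CDK1, stood at 45.98, 50.9 and 39.9 CPM in the overexpression libraries, at 38.9 and 42.2 CPM in the knockdown libraries and at 56.5, 55.2 and 60.1 CPM in the control libraries. Libraries of both treatments lay below every control and overlapped each other, with fold changes of -0.31 ± 0.07 (adjusted p = 0.00109) and -0.50 ± 0.08 (adjusted p = 5.24e-05). WEE1, the nuclear kinase, was higher with overexpression, with means of 130.1 ± 1.23 CPM with overexpression, 113 ± 1.31 CPM with knockdown and 108 ± 3.11 CPM in control. For WEE1 the fold change was 0.27 ± 0.05 (adjusted p = 9.96e-05) with overexpression, 0.06 ± 0.05 (adjusted p = 0.383) with knockdown and 0.21 ± 0.05 (adjusted p = 0.00212) between the treatments.

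Of the other mitotic kinases, PLK1 was the one called. PLK1, polo-like kinase 1, acts in mitotic entry, spindle assembly and cytokinesis. It stood at 135, 139 and 117 CPM in the overexpression libraries, at 200.01 and 193 CPM in the knockdown libraries and at 147, 149 and 152 CPM in the control libraries. No group overlapped another: overexpression was lowest, control lay between and knockdown was highest. PLK1 had a fold change of -0.19 ± 0.06 (adjusted p = 0.00761) with overexpression and 0.40 ± 0.06 (adjusted p = 3.54e-05) with knockdown, and -0.59 ± 0.06 (adjusted p = 1.12e-07) between the treatments. Each of these PLK1 calls held in every left-out-library fit, although without overexpression library 3 the fold change with overexpression was -0.12 (adjusted p = 0.0153). PLK4, which starts centriole duplication, AURKA, the centrosomal Aurora kinase, and NEK2, which separates centrosomes, were not called in any comparison of the fit to all libraries. Their fold changes with overexpression were 0.12 ± 0.06, -0.08 ± 0.05 and -0.12 ± 0.05, and with knockdown 0.02 ± 0.07, -0.01 ± 0.06 and -0.05 ± 0.06. All 3 overexpression libraries lay below every control for AURKA and NEK2, with adjusted p = 0.191 and 0.0641.

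**Figure D4:**
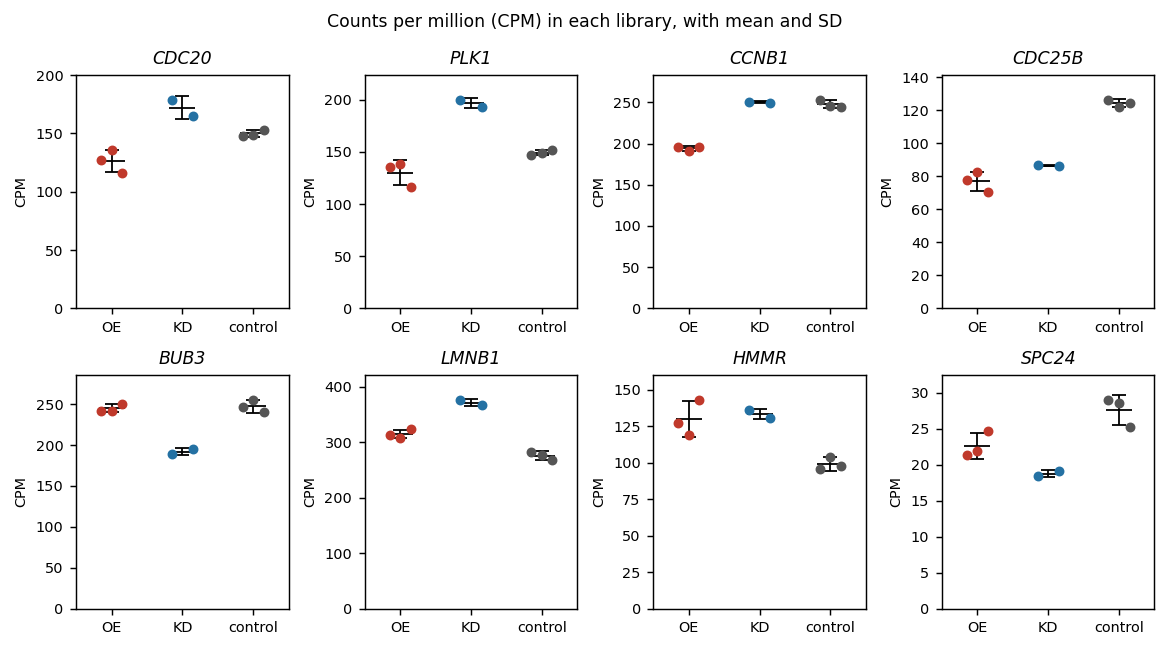
CPM in each library for 8 of the genes, with points for single libraries and the mean and SD of each group, on vertical axes that start at 0. PLK1 and CDC20 are lowest with overexpression and highest with knockdown without overlap, CDC25B is lowest with overexpression and highest in control, and LMNB1 and HMMR are lowest in control.

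None of the 5 spindle checkpoint genes was called with overexpression by edgeR, DESeq2 or limma-voom, and 1 had an unadjusted p under 0.05 by edgeR. The absence of calls depends on the fit: without overexpression library 3 edgeR called 2 of the 5 lower, BUB1 and TTK. Without control library 3, or with no count filter, TTK was called lower as well. With knockdown 2 of the 5 were lower. BUB3, which brings BUB1 and BUB1B to kinetochores, stood at 242, 242 and 251 CPM in the overexpression libraries, at 189 and 195 CPM in the knockdown libraries and at 247, 255 and 239.8 CPM in the control libraries. The knockdown libraries lay below all others, and the overexpression libraries lay within the range of the controls. Its fold change was -0.37 ± 0.05 (adjusted p = 1.08e-05) with knockdown, -0.02 ± 0.05 (adjusted p = 0.802) with overexpression and 0.35 ± 0.05 (adjusted p = 6.95e-06) between the treatments. MAD2L1 encodes MAD2, the protein that binds and blocks CDC20. MAD2L1 stood at 144, 131 and 165 CPM in the overexpression libraries, at 120.1 and 122 CPM in the knockdown libraries and at 148, 148 and 136 CPM in the control libraries. Knockdown was again lowest without overlap, and the overexpression libraries reached beyond the control range on both sides. MAD2L1 had a fold change of -0.25 ± 0.07 (adjusted p = 0.00751) with knockdown, lost without knockdown library 2 (adjusted p = 0.0793), and 0.02 ± 0.06 (adjusted p = 0.822) with overexpression. Between the treatments it was 0.27 ± 0.07 (adjusted p = 0.00265).

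BUB1, a kinase that recruits shugoshin to the centromere, had fold changes of -0.07 ± 0.05 with overexpression and -0.07 ± 0.05 with knockdown, and BUB1B, which encodes BUBR1 of the mitotic checkpoint complex, of 0.02 ± 0.05 and -0.01 ± 0.06. Neither passed the test, but without overexpression library 3 BUB1 was lower with overexpression at -0.11 (adjusted p = 0.0136). TTK, the kinase MPS1 at the head of the checkpoint, averaged 155 ± 15.3 CPM with overexpression, 174 ± 2.13 CPM with knockdown and 168 ± 7.65 CPM in control. Against control TTK had -0.13 ± 0.06 (adjusted p = 0.0758) with overexpression. It was called lower without overexpression library 3, at -0.21 (adjusted p = 0.000152), without control library 3, at -0.17 (adjusted p = 0.0496), and with no count filter. TTK was lower with overexpression than with knockdown, at -0.17 ± 0.06 (adjusted p = 0.0269). That call was lost when overexpression library 1, overexpression library 2, knockdown library 2 or knockdown library 3 was left out (adjusted p from 0.0798 to 0.148) and under library totals, with -0.09 (adjusted p = 0.248).

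All 4 genes of anaphase onset were called with overexpression, 3 lower and 1 higher, and with knockdown 1 was higher and 1 lower. Over all tested genes 49.2% were called with overexpression and 39% with knockdown. CDC20 stood at 127, 136 and 116 CPM in the overexpression libraries, at 179 and 165 CPM in the knockdown libraries and at 148, 149 and 153 CPM in the control libraries. As for PLK1, overexpression was lowest, control lay between and knockdown was highest, with no overlap. The fold change was -0.24 ± 0.06 (adjusted p = 0.0011) with overexpression and -0.44 ± 0.06 (adjusted p = 3.5e-06) between the treatments. With knockdown it was 0.20 ± 0.06 (adjusted p = 0.0123), a call lost without knockdown library 2 (adjusted p = 0.247). ESPL1, the separase that cuts cohesin, stood at 108, 110.5 and 101 CPM in the overexpression libraries, at 125 and 128 CPM in the knockdown libraries and at 137, 138 and 152 CPM in the control libraries. Overexpression was lowest, knockdown next and control highest, again without overlap. ESPL1 had a fold change of -0.41 ± 0.05 (adjusted p = 2.94e-06) with overexpression and -0.25 ± 0.06 (adjusted p = 0.0012) between the treatments. With knockdown it was -0.16 ± 0.06 (adjusted p = 0.0329), a call lost when knockdown library 2, knockdown library 3 or control library 3 was left out (adjusted p from 0.0965 to 0.195).

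UBE2C, the ubiquitin-conjugating enzyme of the anaphase-promoting complex, was lower with overexpression at -0.29 ± 0.05 (adjusted p = 0.000115) and had -0.06 ± 0.06 (adjusted p = 0.447) with knockdown and -0.23 ± 0.06 (adjusted p = 0.00172) between the treatments. PTTG1, the securin that inhibits separase, was higher with overexpression, at 0.19 ± 0.06 (adjusted p = 0.0121). This call was lost without control library 2 (adjusted p = 0.0807). With knockdown the fold change of PTTG1 was -0.07 ± 0.07 (adjusted p = 0.458). Between the treatments PTTG1 had 0.25 ± 0.07 (adjusted p = 0.00239), lost without knockdown library 3 (adjusted p = 0.0582). Means of PTTG1 were 61.1 ± 2.94 CPM with overexpression, 51.00 ± 3.17 CPM with knockdown and 53.6 ± 2.27 CPM in control.

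The chromosomal passenger complex corrects faulty kinetochore attachments and acts in cytokinesis. All 4 of its genes were lower with overexpression, and 1 of 4 was lower with knockdown. Over all tested genes 24.1% and 19.1% were lower, and 34.1% and 16.9% of the 8673 genes of comparable abundance. BIRC5, which encodes survivin, the subunit that docks the complex on chromatin, stood at 227, 231 and 227 CPM in the overexpression libraries, at 310.2 and 279 CPM in the knockdown libraries and at 299, 286 and 286 CPM in the control libraries. Overexpression libraries lay below all others, and knockdown libraries overlapped the controls. The fold change was -0.35 ± 0.05 (adjusted p = 5.14e-06) with overexpression, 0.02 ± 0.05 (adjusted p = 0.77) with knockdown and -0.37 ± 0.05 (adjusted p = 5.22e-06) between the treatments. INCENP, the scaffold of the complex, stood at 127, 129 and 122 CPM in the overexpression libraries, at 152 and 143 CPM in the knockdown libraries and at 159, 153 and 155 CPM in the control libraries. Overexpression was lowest without overlap, and both knockdown libraries lay below the lowest control. INCENP had a fold change of -0.31 ± 0.05 (adjusted p = 2.7e-05) with overexpression, -0.08 ± 0.05 (adjusted p = 0.273) with knockdown and -0.23 ± 0.05 (adjusted p = 0.000948) between the treatments.

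AURKB is the kinase subunit. For AURKB the fold change was -0.16 ± 0.05 (adjusted p = 0.018) with overexpression, a call lost when overexpression library 1 or control library 3 was left out (adjusted p from 0.0695 to 0.0725) and under library totals. With knockdown the fold change of AURKB was -0.18 ± 0.06 (adjusted p = 0.02), a call lost when knockdown library 2, knockdown library 3 or control library 3 was left out (adjusted p from 0.0512 to 0.189). CDCA8, which encodes borealin, had -0.18 ± 0.05 (adjusted p = 0.00574) with overexpression and 0.05 ± 0.06 (adjusted p = 0.504) with knockdown. Between the treatments CDCA8 had -0.23 ± 0.06 (adjusted p = 0.00143), lost without knockdown library 2 (adjusted p = 0.0595). The median fold change of the 4 genes was -0.24 with overexpression and -0.03 with knockdown.

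Among 8 centromere proteins 1 was higher and 3 were lower with overexpression, and 1 was higher and 2 were lower with knockdown. Without overexpression library 2, 3 were higher with overexpression, since CENPE and CENPF were then called at 0.23 and 0.14 (adjusted p = 0.00202 and 0.0213). CENPI, a subunit of the constitutive inner kinetochore, stood at 42.8, 40.3 and 48.2 CPM in the overexpression libraries, at 60.1 and 55.1 CPM in the knockdown libraries and at 58.4, 58.3 and 58.4 CPM in the control libraries. The overexpression libraries were below all others, and the knockdown libraries fell on both sides of the controls. CENPI had a fold change of -0.43 ± 0.06 (adjusted p = 1.64e-05) with overexpression, -0.01 ± 0.07 (adjusted p = 0.888) with knockdown and -0.41 ± 0.07 (adjusted p = 4.22e-05) between the treatments. CENPH, which sits in one subcomplex with CENPI and CENPK, stood at 99.7, 103 and 109 CPM in the overexpression libraries, at 85.3 and 84.9 CPM in the knockdown libraries and at 109, 111 and 107 CPM in the control libraries. Here the knockdown libraries were below all others, and the overexpression libraries overlapped the controls. Its fold change was -0.36 ± 0.06 (adjusted p = 4.53e-05) with knockdown, -0.07 ± 0.05 (adjusted p = 0.253) with overexpression and 0.29 ± 0.06 (adjusted p = 0.000205) between the treatments.

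CENPK, the third gene of that subcomplex, was higher with overexpression at 0.27 ± 0.06 (adjusted p = 0.00117), with 0.06 ± 0.07 (adjusted p = 0.505) with knockdown. Against knockdown CENPK had 0.21 ± 0.07 (adjusted p = 0.0122), a call lost without knockdown library 2 (adjusted p = 0.152). CENPM, which binds CENPI, stood at 23.3, 24.4 and 20.2 CPM in the overexpression libraries, at 23.6 and 24.9 CPM in the knockdown libraries and at 31.3, 27.5 and 28.3 CPM in the control libraries. Both treatments lay below every control and overlapped each other. CENPM had a fold change of -0.35 ± 0.08 (adjusted p = 0.000905) with overexpression, and of -0.27 ± 0.08 (adjusted p = 0.0153) with knockdown, which was lost when knockdown library 2 or control library 1 was left out (adjusted p from 0.0998 to 0.165). CENPN, which reads the CENPA nucleosome, was lower with overexpression at -0.30 ± 0.06 (adjusted p = 0.000412) and had -0.05 ± 0.07 (adjusted p = 0.622) with knockdown. Between the treatments it had -0.25 ± 0.07 (adjusted p = 0.00287), lost without knockdown library 2 (adjusted p = 0.172).

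CENPE, the kinetochore motor, was higher with knockdown at 0.30 ± 0.07 (adjusted p = 0.0028) and had 0.14 ± 0.07 (adjusted p = 0.0801) with overexpression, where the libraries overlapped the controls. CENPA, the histone H3 variant that marks centromeres, was not called in the fit to all libraries, with fold changes of -0.04 ± 0.07 with overexpression and -0.15 ± 0.08 with knockdown. By edgeR CENPA was called lower with knockdown in the fit of 2 groups and without overexpression library 3 (adjusted p = 0.0418 and 0.0487). CENPF, a large kinetochore and nuclear matrix protein, was not called either, with 0.06 ± 0.06 and 0.01 ± 0.07.

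Of the 4 genes of the NDC80 complex, which holds the microtubule end, 2 were lower with overexpression, SPC24 and SPC25, and 2 were lower with knockdown, also SPC24 and SPC25. These encode the subunits that face the inner kinetochore, and NDC80 and NUF2, which encode those that face the microtubule, were called in neither comparison with control. SPC24 stood at 21.3, 21.9 and 24.7 CPM in the overexpression libraries, at 18.4 and 19.1 CPM in the knockdown libraries and at 28.99, 28.6 and 25.2 CPM in the control libraries. Knockdown was lowest, overexpression next and control highest, without overlap. SPC24 had a fold change of -0.31 ± 0.08 (adjusted p = 0.00251) with overexpression and -0.57 ± 0.09 (adjusted p = 2.89e-05) with knockdown. The difference between the treatments was 0.26 ± 0.09 (adjusted p = 0.0146), a call lost without knockdown library 2 (adjusted p = 0.132). SPC25 stood at 37.3, 37.8 and 42.6 CPM in the overexpression libraries, at 36.5 and 36.1 CPM in the knockdown libraries and at 49.8, 47.3 and 46.4 CPM in the control libraries. The groups stood in the same order as for SPC24, and the treatments were close to each other. For SPC25 the fold change was -0.30 ± 0.06 (adjusted p = 0.000571) with overexpression, -0.40 ± 0.07 (adjusted p = 0.000134) with knockdown and 0.10 ± 0.07 (adjusted p = 0.228) between the treatments. NDC80 had -0.06 ± 0.06 with overexpression and 0.02 ± 0.07 with knockdown, and NUF2 had 0.04 ± 0.06 and -0.03 ± 0.07.

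Of 10 genes of the spindle, its midzone and cytokinesis, 4 were higher and 0 lower with overexpression, where edgeR gave 4 at an unadjusted p under 0.05 and neither DESeq2 nor limma-voom called one lower. Without overexpression library 3 edgeR called 2 higher (HMMR and NUSAP1) and 1 lower (TPX2), and without control library 1 or 3 it called 2 higher and 0 lower. With knockdown 4 were higher and 1 lower, against 2 and 1 without knockdown library 3 or without control library 1. HMMR, a microtubule-binding protein of the spindle poles, stood at 127, 119 and 143 CPM in the overexpression libraries, at 136 and 131 CPM in the knockdown libraries and at 95.5, 104 and 97.8 CPM in the control libraries. The libraries of both treatments lay above every control and overlapped each other. The fold change of HMMR was 0.38 ± 0.06 (adjusted p = 2.79e-05) with overexpression and 0.43 ± 0.07 (adjusted p = 3.52e-05) with knockdown. DLGAP5, which stabilises kinetochore fibres, stood at 134, 125 and 161 CPM in the overexpression libraries, at 161 and 165 CPM in the knockdown libraries and at 125, 133 and 131 CPM in the control libraries. The knockdown libraries lay above the controls, and overexpression library 3 fell among the knockdown values while the other overexpression libraries lay close to the controls. DLGAP5 had a fold change of 0.32 ± 0.07 (adjusted p = 0.00148) with knockdown and 0.10 ± 0.07 (adjusted p = 0.21) with overexpression. Between the treatments it was -0.22 ± 0.07 (adjusted p = 0.0137), a call lost when overexpression library 1, overexpression library 2, knockdown library 2 or knockdown library 3 was left out (adjusted p from 0.0552 to 0.0875) and under library totals, with -0.14 (adjusted p = 0.121).

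TPX2, which activates AURKA on the spindle, stood at 289, 281 and 299.5 CPM in the overexpression libraries, at 244 and 246 CPM in the knockdown libraries and at 304, 305 and 313 CPM in the control libraries. Knockdown was lowest, overexpression next and control highest, without overlap. TPX2 had a fold change of -0.33 ± 0.05 (adjusted p = 2.91e-05) with knockdown and 0.24 ± 0.05 (adjusted p = 0.000329) between the treatments. With overexpression TPX2 had -0.09 ± 0.04 (adjusted p = 0.107), and it was called lower when overexpression library 3 was left out, at -0.11 (adjusted p = 0.0177). NUSAP1, which bundles spindle microtubules, was higher with overexpression at 0.23 ± 0.05 (adjusted p = 0.000965) and had 0.05 ± 0.06 (adjusted p = 0.502) with knockdown. Against knockdown NUSAP1 had 0.18 ± 0.06 (adjusted p = 0.0117), lost when knockdown library 2 or knockdown library 3 was left out (adjusted p from 0.069 to 0.0763), and 0.12 without overexpression library 3.

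ASPM encodes a spindle pole protein. With overexpression its fold change was 0.17 ± 0.06 (adjusted p = 0.0321), a call lost when overexpression library 3, control library 1 or control library 3 was left out (adjusted p from 0.103 to 0.137). With knockdown ASPM had 0.23 ± 0.07 (adjusted p = 0.0117), a call lost when knockdown library 3 or control library 1 was left out (adjusted p from 0.0635 to 0.117). PRC1, which bundles midzone microtubules, was higher with knockdown at 0.14 ± 0.05 (adjusted p = 0.025), lost when knockdown library 2, knockdown library 3, control library 1, control library 2 or control library 3 was left out (adjusted p from 0.0636 to 0.164) and under library totals. ANLN, anillin of the contractile ring, was higher with overexpression at 0.13 ± 0.05 (adjusted p = 0.0397). The call of ANLN was lost when overexpression library 1, overexpression library 3, knockdown library 2, knockdown library 3, control library 1 or control library 3 was left out (adjusted p from 0.057 to 0.17) and with DESeq2 (adjusted p = 0.0585). Against knockdown ANLN had 0.17 ± 0.06 (adjusted p = 0.018), lost when knockdown library 2 or knockdown library 3 was left out (adjusted p from 0.0677 to 0.125). CKAP2, a microtubule stabiliser, and ECT2 and RACGAP1, which control RhoA at the midzone, were not called in any comparison of the fit to all libraries. Their fold changes were 0.03 ± 0.05, 0.03 ± 0.05 and 0.03 ± 0.05 with overexpression and 0.08 ± 0.06, 0.09 ± 0.05 and -0.03 ± 0.06 with knockdown.

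All 3 genes of chromosome and nuclear structure were higher with overexpression, and 2 of 3 with knockdown. Over all tested genes 25.2% and 19.9% were higher, and 20.9% and 26.2% of the 8673 genes of comparable abundance. MKI67, which encodes the Ki-67 protein that coats mitotic chromosomes, stood at 582, 523 and 562 CPM in the overexpression libraries, at 446 and 481 CPM in the knockdown libraries and at 458, 489.5 and 478 CPM in the control libraries. Overexpression was highest without overlap, and knockdown overlapped control. The fold change was 0.23 ± 0.05 (adjusted p = 0.000615) with overexpression, -0.04 ± 0.05 (adjusted p = 0.637) with knockdown and 0.26 ± 0.05 (adjusted p = 0.000351) between the treatments. LMNB1, which encodes lamin B1 of the nuclear lamina, stood at 313, 308 and 323 CPM in the overexpression libraries, at 376 and 366 CPM in the knockdown libraries and at 283, 277 and 267 CPM in the control libraries. Knockdown was highest, overexpression next and control lowest, without overlap. The fold change of LMNB1 was 0.19 ± 0.04 (adjusted p = 0.00136) with overexpression, 0.43 ± 0.05 (adjusted p = 9.15e-07) with knockdown and -0.24 ± 0.05 (adjusted p = 0.000288) between the treatments. TOP2A, the topoisomerase that untangles sister chromatids, was higher at 0.28 ± 0.05 (adjusted p = 8.28e-05) with overexpression. With knockdown TOP2A had 0.17 ± 0.05 (adjusted p = 0.0186), lost when knockdown library 2, knockdown library 3, control library 1 or control library 3 was left out (adjusted p from 0.0571 to 0.116) and under library totals.

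MYBL2, the B-Myb transcription factor of the MuvB complex, stood at 345, 356 and 309 CPM in the overexpression libraries, at 377 and 361 CPM in the knockdown libraries and at 373, 369 and 374 CPM in the control libraries. Every overexpression library lay below every other library, and the knockdown libraries overlapped the controls. MYBL2 had a fold change of -0.14 ± 0.05 (adjusted p = 0.0227) with overexpression, lost when overexpression library 3, control library 1, control library 2 or control library 3 was left out (adjusted p from 0.0519 to 0.0763) and under library totals, and -0.01 ± 0.06 (adjusted p = 0.899) with knockdown. Against knockdown it was -0.13 ± 0.06 (adjusted p = 0.0475), lost in every fit that left out a library except overexpression library 2, with adjusted p up to 0.288, and under library totals, with -0.04 (adjusted p = 0.5). FOXM1, the forkhead factor that acts with it on late cell cycle promoters and is no member of the 54, stood at 247, 265 and 224 CPM in the overexpression libraries, at 410.3 and 391 CPM in the knockdown libraries and at 403, 393 and 403 CPM in the control libraries. Its fold change was -0.70 ± 0.05 (adjusted p = 3.03e-09) with overexpression and 0.00 ± 0.06 (adjusted p = 0.961) with knockdown, with overexpression libraries far below the rest and knockdown libraries on both sides of the controls.

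In each related gene list outside the 54 genes, apart from the CDK inhibitors, more genes were called lower than higher with overexpression. Over all tested genes 25.2% were higher and 24.1% lower, but among the 8673 genes at least as abundant as the lowest of the 54 the shares were 20.9% and 34.1%, so lower calls outnumber higher ones at this abundance in general. Under library totals mitotic exit genes gave 5 higher and 5 lower, and transcription regulators 6 and 6. Of 36 other centromere and kinetochore genes 5 were higher and 12 lower (median -0.05), with CENPQ at 0.60 ± 0.06 (adjusted p = 2.55e-07). Of 18 genes of the anaphase-promoting complex and its regulators 2 were higher and 6 lower (median -0.09), including ANAPC7 at -0.36 ± 0.05 (adjusted p = 4.49e-06) and FZR1, the activator that follows CDC20, at -0.36 ± 0.06 (adjusted p = 9.99e-05). The 12 condensin and mitotic chromosome genes gave 0 higher and 6 lower (median -0.14), and all 6 with an unadjusted p under 0.05 were those called. CDCA5, which encodes the cohesion protein sororin, had -0.45 ± 0.05 (adjusted p = 2.68e-07). Spindle pole, augmin and microtubule genes gave 4 higher and 13 lower of 26 (median -0.14), with GTSE1 at -0.40 ± 0.05 (adjusted p = 3.81e-06), and mitotic exit and cytokinesis genes gave 3 higher and 5 lower of 14. DNA replication genes gave 3 higher and 24 lower of 41 (median -0.16), led by UHRF1 at -0.53 ± 0.05 (adjusted p = 1.88e-07). Of 21 cell cycle transcription regulators 2 were higher and 10 lower. Of 16 CDK inhibitors and G2 arrest genes 5 were higher and 2 lower, with CDKN1A, which encodes p21, at 0.83 ± 0.06 (adjusted p = 9.85e-10).

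With knockdown some related lists held more higher calls and others more lower calls, where 19.9% of all genes were higher and 19.1% lower (26.2% and 16.9% of the 8673 genes of comparable abundance). Anaphase-promoting complex genes gave 6 higher and 0 lower of 18 (median 0.12, and 8 with an unadjusted p under 0.05), with ANAPC1 at 0.32 ± 0.06 (adjusted p = 0.000121). Spindle pole genes gave 9 higher and 2 lower of 26 (median 0.08), and other centromere and kinetochore genes 8 higher and 3 lower of 36. Fewer genes of each of these lists were called without knockdown library 2, and fewer of all tested genes as well. Lower genes outnumbered higher ones among DNA replication genes, with 4 higher and 10 lower of 41. Condensin genes gave 1 higher and 3 lower of 12, among them NCAPG2 at -0.37 ± 0.05 (adjusted p = 6.77e-06), and mitotic exit genes 2 higher and 5 lower of 14. Transcription regulators gave 6 higher and 5 lower of 21, with E2F1 at -0.61 ± 0.06 (adjusted p = 2.84e-07), and CDK inhibitors and arrest genes 7 higher and 2 lower of 16, with CDKN1A at 1.16 ± 0.06 (adjusted p = 3.72e-11). Set against knockdown, overexpression left anaphase-promoting complex genes with 0 higher and 12 lower of 18 (13 with an unadjusted p under 0.05 by edgeR), and spindle pole genes with 1 higher and 16 lower of 26. In that comparison 28.1% of all genes and 40.7% of the 8673 genes of comparable abundance were lower, and library totals gave 1 higher and 8 lower, and 4 higher and 11 lower.

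**Figure D5:**
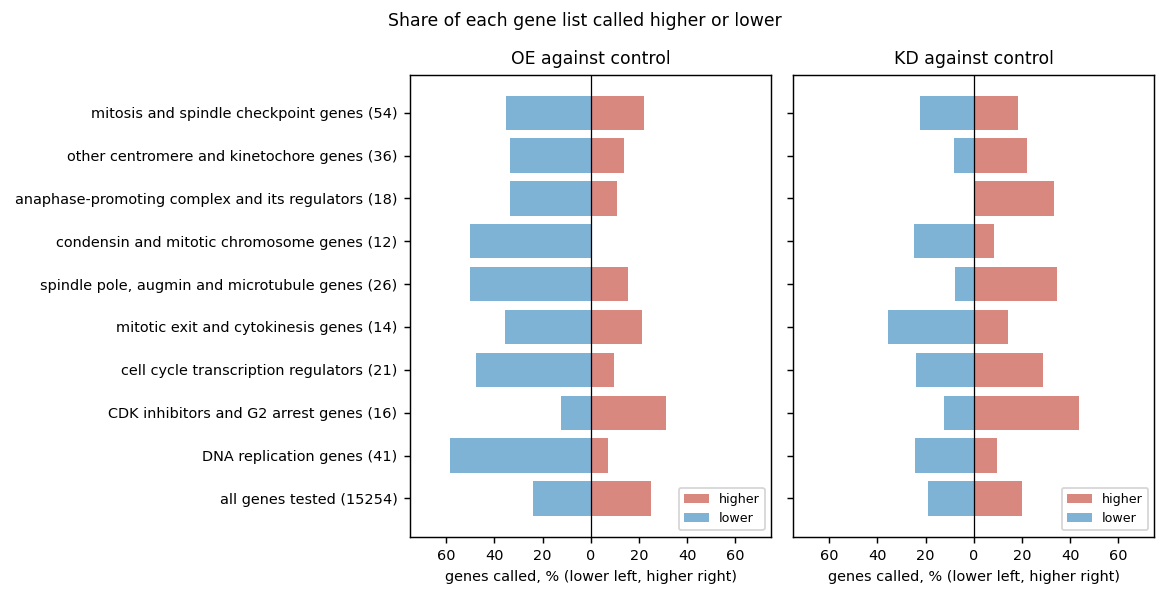
Share of each gene list called higher (right) or lower (left), in percent of its genes, with overexpression against control and knockdown against control, for the 54 mitotic genes, the related lists and all 15254 tested genes. DNA replication genes have the longest bar to the left with overexpression, with 24 of 41 lower.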

How the data were processed

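The authors deposited a table of raw read counts, 1 row per gene symbol, from 8 stranded TruSeq libraries of total RNA. The submitters' processing notes name the build hg19, the aligner TopHat2 2.0.8, the counter HTSeq 0.5.3p9, and also edgeR, SAMtools 0.1.18, Trimmomatic 0.22 and CASAVA 1.8.2. How strand and multiply aligned reads were handled is not given in the sources used here, so overlapping and copied genes are uncertain.

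Groups and replicate numbers came from the library titles. Of 23368 symbols, 3620 had no read, and 15254 passed edgeR's filterByExpr (minimum count 10, minimum total 15). In R 4.3.3, edgeR 4.0.16 was run with TMM factors (0.961 to 1.03), 1 quasi-likelihood fit to the 8 libraries with group means, two-sided F tests, and Benjamini-Hochberg adjustment over all tested genes. Genes with an adjusted p under 0.05 were called. The common biological coefficient of variation was 4.49%. The deepest library held 2.58 times the reads of the shallowest, and low depth widens the counting error of low genes such as SPC24. Pairs of libraries of a group differed by a chi-square per gene of 1.88 to 8.04, more than counting error alone gives. That cannot tell separate cultures from separate preparations of 1 culture, and each library was counted as a replicate by its title.

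The 54 genes and the related lists were chosen with earlier results of these data known. Every one of the 54 may be named. Values in every library are given for MOV10, for the 12 called genes with the largest absolute change in each comparison and for the gene with the smallest adjusted p of each role, and up to 4 genes of another list are named by adjusted p. Shares among genes of comparable abundance were added after the data were seen. Promoter windows came from RefSeq on GRCh38.p14, and exon lengths from GENCODE 29. Alternatives were size factors, library totals, other count filters, DESeq2 1.42.0, limma-voom (limma 3.58.1), an adjusted p of 0.01, a test against a fold of 1.2, MOV10 left out, a replicate block, fits of 2 groups, and leaving out each library.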

Additional observations from a re-analysis of the deposited data

How the results depend on the processing

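Of the calls of mitotic genes, 26 of 31 with overexpression, 13 of 22 with knockdown and 17 of 30 between the treatments held in all 17 alternatives other than the stricter thresholds, and no called gene changed direction in any alternative. Tested against a fold of 1.2, 0 mitotic genes were higher and 5 lower with overexpression (all genes 1491 and 859), 3 and 3 with knockdown (all genes 722 and 978), and 0 and 6 between the treatments (all genes 2475 and 1522). These counts were not set against the 8673 genes of comparable abundance. At the main threshold 20.9% of those were higher and 34.1% lower with overexpression, 26.2% and 16.9% with knockdown, and 20.4% and 40.7% between the treatments. At an adjusted p under 0.01, 9 mitotic genes were higher and 17 lower with overexpression (all genes 2833 and 2719). With knockdown the counts were 6 and 9 (all genes 2049 and 1912), and between the treatments 8 and 12 (all genes 3468 and 3360). Leaving out each library in turn gave 10 to 17 higher and 18 to 21 lower mitotic genes with overexpression, 7 to 10 higher and 8 to 13 lower with knockdown, and 8 to 16 higher and 10 to 20 lower between the treatments. Over all genes the same fits gave 1577 to 3749 higher and 1466 to 3484 lower with knockdown, the lowest of each without knockdown library 2, and 3142 to 3974 higher and 2964 to 3874 lower with overexpression. Between the treatments they gave 3063 to 4607 higher and 3013 to 4541 lower. When a knockdown library was left out, the remaining one was assumed to vary like the other groups. Over all genes, library totals in place of TMM moved the higher share among called genes to 60.1% from 51.1% with overexpression, to 39.5% from 51.1% with knockdown and to 65.5% from 51.0% between the treatments, and the cause was not tested. Libraries with the same replicate number had correlations of their deviations of 0.04, -0.31 and -0.29 between overexpression and control (numbers 1, 2 and 3), of 0.01 and 0.07 between overexpression and knockdown (numbers 2 and 3) and of -0.00 and 0.21 between knockdown and control (numbers 2 and 3). Since not every one of these was over 0.1, the numbers were not taken as pairs. Libraries of unlike numbers reached 0.31 (overexpression 3 with control 2, and overexpression 2 with control 3) and 0.24 (knockdown 2 with control 1). Other pairs of unlike numbers were lower or negative. Deviations were taken from group means, so values within a group offset each other, and the source of these correlations was not tested. With the replicate block 11 mitotic genes were higher and 19 lower with overexpression, 8 and 10 with knockdown, and 13 and 14 between the treatments. The block lost the call of ANLN with overexpression, those of CENPM, ESPL1, PRC1 and TOP2A with knockdown, and those of CCNB2, MYBL2 and TTK between the treatments. Fits of 2 groups lost ANLN with overexpression, and CCNB2, CDC25B, MYBL2 and TTK between the treatments, and called CENPA lower with knockdown. The lost calls listed above by gene do not cover every alternative. With 2 knockdown libraries, changes much under the size of those called may have gone undetected.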
